A study of Mus musculus with 10 samples.

Results

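Fast excitatory transmission in the brain runs through AMPA and NMDA receptors, which are tetrameric cation channels opened by glutamate. AMPA receptors carry most of the fast synaptic current and assemble from the products of Gria1 to Gria4. NMDA receptors need the obligatory subunit encoded by Grin1, combined with the products of the Grin2 and Grin3 genes. They admit calcium and need glycine or D-serine as co-agonist, and the Grin2 subunit in a receptor sets how quickly its current decays. The subunits are distributed unevenly over brain regions: Grin2c is classically a gene of cerebellar granule cells, and Gria4 is abundant in granule cells and Bergmann glia of the cerebellum.

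The 10 genes considered were Gria1, Gria2, Gria3, Gria4, Grin1, Grin2a, Grin2b, Grin2c, Grin2d and Grin3a, each taken through the brightest probe set that the platform annotation assigns to that symbol alone. Of these 10 genes, 9 had such a probe set, 1 each, among 19938 genes with a value. Grin1 was not paired with a probe set in the annotation used, and it was not analysed here. The study profiled whole-brain RNA from 5 mice overexpressing Glo1 from a bacterial artificial chromosome (Tg) and from 5 wild-type littermates (WT), with 1 single-channel Affymetrix gene array per mouse. All 10 mice were adult males of C57Bl/6J background, group housed and untreated. The labels do not give the age beyond adult, or the promoter that drives the transgene. Glo1 encodes glyoxalase 1, which clears the glycolytic by-product methylglyoxal. Values are array signal in log2 units, so a difference of 1 unit is a factor of 2.

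Glo1 checked the labels: its brightest probe set read 11.88 to 12.23 in Tg and 10.27 to 10.75 in WT brain. Array medians over the 28944 probe sets tested lay between 7.95 and 8.05. WT replicate 2 stood apart from the other arrays in cerebellar transcripts, so the Tg and WT comparisons that it moved are given with and without it. On that array the mean of 12 cerebellar granule cell markers was 8.70, against 10.53 to 10.60 on the other 4 WT arrays and 10.37 to 10.46 on the Tg arrays. The mean of 8 neuronal markers was 12.12 on WT replicate 2, against 12.13 to 12.16 on the other WT arrays and 12.13 to 12.15 on the Tg arrays.

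The upstream sequences of 3 subunits are shown because the results turn on them: relative to the other arrays, Gria4 and Grin2c fell farthest below on WT replicate 2, while Gria2, the subunit of highest mean signal, stayed within the range of the others. Each is the 250 bases before the annotated gene start on the minus strand, from RefSeq on build GRCm38.p6, at chr9:4796235-4796484 for Gria4, chr11:115267244-115267493 for Grin2c and chr3:80802836-80803085 for Gria2. Capitals mark GC boxes (GGGCGG or its reverse complement).
Gria4: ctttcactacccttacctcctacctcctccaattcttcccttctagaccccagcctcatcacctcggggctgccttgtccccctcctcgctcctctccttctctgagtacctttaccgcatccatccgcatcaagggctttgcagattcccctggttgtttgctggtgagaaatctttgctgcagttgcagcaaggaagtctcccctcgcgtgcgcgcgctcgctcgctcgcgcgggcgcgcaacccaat
Grin2c: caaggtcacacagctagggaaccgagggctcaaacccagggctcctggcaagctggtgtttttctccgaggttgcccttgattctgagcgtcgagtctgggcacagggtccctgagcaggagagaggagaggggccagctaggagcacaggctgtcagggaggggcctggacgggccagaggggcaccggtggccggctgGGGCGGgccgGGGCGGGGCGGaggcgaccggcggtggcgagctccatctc
Gria2: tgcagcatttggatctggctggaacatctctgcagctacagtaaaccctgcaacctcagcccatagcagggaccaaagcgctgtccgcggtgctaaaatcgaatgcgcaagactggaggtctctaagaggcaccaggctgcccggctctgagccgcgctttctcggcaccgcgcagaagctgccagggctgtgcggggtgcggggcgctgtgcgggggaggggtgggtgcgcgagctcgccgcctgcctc
Grin2c held 3 GC boxes, the last 2 of them overlapping by 1 base, while Gria4 and Gria2 held 0. Over the 32851 upstream windows of this length in the table, 32.7% held at least 1 on either strand. The TATA box (TATAAA, in 12.4% of windows) and the E-box type bound by NEUROD1 (CAGATG, in 14.4%) were in 0 of these 3, searched on both strands. Base composition was 68.8% G or C for Grin2c, 58.8% for Gria4 and 64.8% for Gria2. A match is a description of letters and not a binding site.

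All 9 subunits were brighter than the median probe set in whole brain. The brightest was Gria2, whose product makes AMPA receptors nearly impermeable to calcium, with a mean over 10 arrays of 12.12 and brighter than 97.7% of probe sets. Gria1 averaged 11.85 and Gria3, an AMPA subunit that often pairs with the Gria2 product, also averaged 11.85. Grin2b, the NMDA subunit that predominates in the young forebrain, averaged 11.57, and Grin2a, its counterpart in mature synapses, averaged 11.33. Gria4, the rapidly gating AMPA subunit, averaged 11.28. The remaining 3 were dimmer. Grin3a, a subunit that lowers calcium entry, averaged 9.54, Grin2c averaged 9.33, and Grin2d, a slowly deactivating subunit of interneurons and brainstem, averaged 8.51 and was brighter than 58.8% of probe sets.

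This order describes probe set signal, because probes differ in how well they bind, and it is not an order of transcript amounts. The order was firm between some neighbours and not between others. Gria2 was brighter than Gria1 on all 10 arrays, and their ranges did not overlap. Gria1 and Gria3 could not be ordered: Gria1 was the brighter on 5 of 10 arrays, with a mean difference of 0.0017 (SD 0.063). Grin2a was brighter than Gria4 on 4 of 10 arrays, one of them WT replicate 2. On the Tg arrays Grin2a averaged 11.31 and Gria4 11.30. On the WT arrays other than replicate 2 the order was reversed, with Grin2a at 11.33 and Gria4 at 11.40. Grin3a exceeded Grin2c on all 10 arrays, by 0.21 on average (SD 0.15), although their ranges over arrays overlapped. The widest step lay between Gria4 and Grin3a, at 1.74 (SD 0.18).

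**Figure D1:**
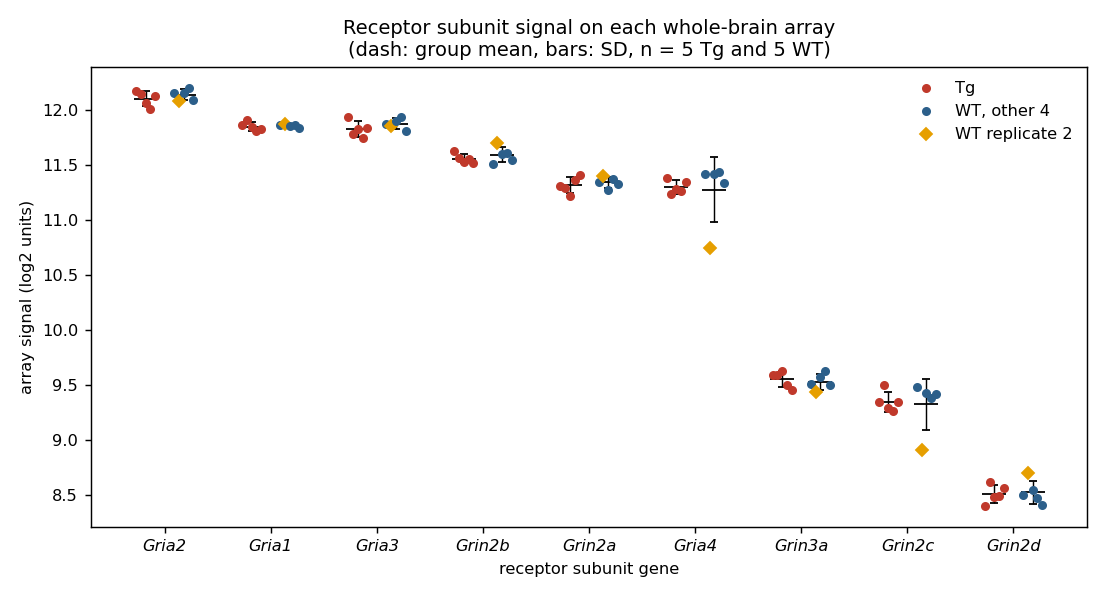
Array signal in log2 units (vertical axis) of the 9 measured subunit genes, ordered from left to right by mean signal, with Tg arrays in red to the left of the WT arrays of each gene. Dashes and bars are group means and SD (n = 5 each); WT replicate 2, the orange diamond, lies at 10.75 for Gria4 and 8.91 for Grin2c, below all other arrays.

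The main comparison asked whether overexpression of Glo1 went with other levels of these subunits. None of the 9 subunits passed the threshold in limma (adjusted p under 0.05 over 28944 probe sets), and 0 of 9 had an unadjusted p under 0.05. Over all probe sets, 0.0345% passed and 2.21% had an unadjusted p under 0.05. The Tg and WT values overlapped for all 9 subunits, while they did not overlap in 0.46% of all probe sets. Of the 10 probe sets that passed, 2 were higher and 8 lower in Tg, 2 belonged to Glo1 and 8 lay on chromosome 6. Grin2b also lies on chromosome 6 but did not pass, and its distance from those probe sets was not analysed. The subunit differences (Tg minus WT) ran from -0.05 to 0.03, with a median of -0.012, against -0.0031 over all probe sets. Without WT replicate 2 the medians were -0.012 and 0.0083. Of the 9 subunits, 6 were below 0 with all arrays and 8 without that one.

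Among the AMPA subunits, Gria1 varied least between arrays. It read 11.86, 11.90, 11.84, 11.80 and 11.82 on the Tg arrays, against 11.86, 11.87, 11.85, 11.86 and 11.83 on the WT arrays. The WT values lay within the range of the Tg values, and the difference was -0.01 (95% confidence interval -0.09 to 0.07, limma adjusted p = 0.9998).
Gria2 read 12.169, 12.137, 12.062, 12.001 and 12.123 in Tg, against 12.150, 12.078, 12.147, 12.200 and 12.088 in WT. Tg replicate 4 was its lowest array and WT replicate 4 its highest, with overlap between the groups and a difference of -0.03 (-0.13 to 0.06; two-sided exact permutation p = 0.397).
Gria3 read 11.94, 11.78, 11.83, 11.74 and 11.83 in Tg, against 11.87, 11.85, 11.90, 11.94 and 11.81 in WT. Its difference of -0.05 (-0.15 to 0.05; exact permutation p = 0.254) was the lowest of the 9, and the highest Tg and WT values were almost equal. For Gria1, Gria2 and Gria3 the intervals reached from a 9.87% reduction to a 5.06% increase at the widest.

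Gria4 had 1 array far from the rest. It read 11.38, 11.23, 11.27, 11.26 and 11.34 in Tg, against 11.42, 10.75, 11.42, 11.43 and 11.33 in WT, where 10.75 belonged to WT replicate 2. The Tg values lay between that array and 3 of the WT arrays. With all arrays the difference was 0.03 (-0.23 to 0.28, limma adjusted p = 0.9998). Without WT replicate 2 the sign turned, to -0.10 (-0.20 to -0.01), with a limma adjusted p of 0.432 and an exact permutation p of 0.0476; 5 against 4 arrays cannot give less than 0.0159. The Tg and remaining WT values still overlapped, with the highest Tg value at 11.38 and the lowest WT value at 11.33. Without that array 0 of 9 subunits passed, against 0.038% of all probe sets, and 0 of 9 had groups that did not overlap, against 3.1%. In that fit 1 of 9 subunits, Gria4, had an unadjusted p under 0.05, as did 11.0% of all probe sets, so the share was near the background. Beside it, the granule cell marker mean was 10.37 to 10.46 in Tg and 10.53 to 10.60 on the other 4 WT arrays, and that of 8 Purkinje cell markers was 10.04 to 10.16 in Tg and 10.19 to 10.31 on those WT arrays. The part of these markers in the Gria4 difference was not tested. In whole-brain RNA, fewer cells of a type and less RNA per cell cannot be told apart.

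Among the NMDA subunits, Grin2a read 11.30, 11.28, 11.21, 11.36 and 11.40 in Tg, against 11.34, 11.40, 11.27, 11.37 and 11.32 in WT. The WT values again fell inside the Tg range, with a difference of -0.03 (-0.13 to 0.07; exact permutation p = 0.508).
Grin2b read 11.62, 11.56, 11.52, 11.55 and 11.51 in Tg, against 11.51, 11.69, 11.60, 11.61 and 11.54 in WT. WT replicate 2 was its highest array, and the difference of -0.04 (-0.13 to 0.06; exact permutation p = 0.365) was -0.01 without that array.
The balance of Grin2a to Grin2b, which shifts as synapses mature, can be followed as a difference within each array even though the separate probe sets cannot be compared. Grin2a minus Grin2b averaged -0.24 ± 0.090 in Tg and -0.25 ± 0.064 in WT (SD, n = 5 each). The same difference for Gria1 minus Gria2 averaged -0.25 ± 0.048 in Tg and -0.28 ± 0.050 in WT (SD, n = 5 each). Both differences between genotypes, 0.010 and 0.027, were smaller than the SD between arrays of either group. Without WT replicate 2 they were -0.00099 and 0.044. The value of 0.044 was above the SD of 0.038 over the remaining WT arrays and below the Tg SD of 0.048. These SDs describe the spread of single arrays and not the uncertainty of a difference between group means. The differences were not tested.

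Grin2c read 9.34, 9.50, 9.29, 9.26 and 9.34 in Tg, against 9.47, 8.91, 9.43, 9.38 and 9.41 in WT, with 8.91 on WT replicate 2. The pattern resembled that of Gria4: the difference was 0.02 (-0.19 to 0.24, limma adjusted p = 0.9998) with all arrays and -0.08 (-0.19 to 0.03, limma adjusted p = 0.558) without that one. Tg replicate 2, at 9.50, was above every WT array. Olfactory bulb, where Grin2c is also expressed, had a marker mean of 8.02 to 8.54 on the Tg arrays, 7.92 on WT replicate 2 and 7.83 to 8.13 on the other WT arrays; the part of these markers in the Grin2c difference was not tested.
Grin2d read 8.40, 8.62, 8.48, 8.49 and 8.56 in Tg, against 8.49, 8.69, 8.54, 8.47 and 8.41 in WT. The groups covered nearly the same range, and the difference of -0.01 (-0.14 to 0.12; exact permutation p = 0.865) turned to 0.03 without WT replicate 2.
Grin3a read 9.59, 9.59, 9.62, 9.49 and 9.46 in Tg, against 9.50, 9.44, 9.57, 9.62 and 9.50 in WT. Its difference was 0.02 (-0.09 to 0.13; exact permutation p = 0.619), and -0.00083 without WT replicate 2. For the NMDA subunits other than Grin2c, the intervals reached from a 9.54% reduction to a 9.52% increase at the widest.

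**Figure D2:**
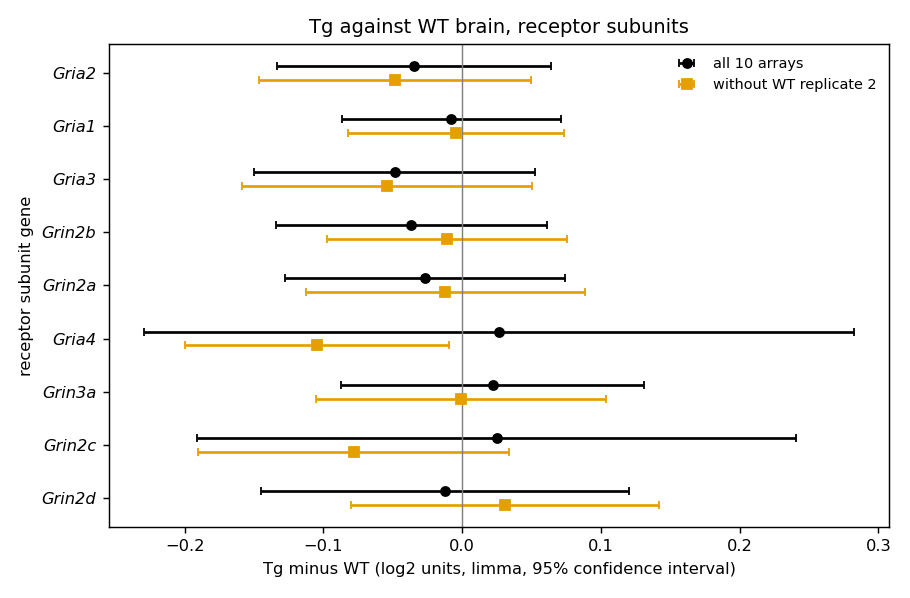
Tg minus WT in log2 units (horizontal axis) for each subunit gene, with 95% confidence intervals from limma, for all 10 arrays (black circles) and without WT replicate 2 (orange squares). Estimates lie between -0.05 and 0.03 with all arrays; Gria4 and Grin2c have the widest intervals and turn from positive to negative without that array, when the Gria4 interval (-0.20 to -0.01) leaves out 0.

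WT replicate 2 was used to mark subunits whose whole-brain signal was low together with cerebellar transcripts. It is 1 array with no replicate, so its values carry no test. On it 11 of 12 granule cell markers and 7 of 8 Purkinje cell markers lay below all 9 other arrays, against 14.7% of all probe sets. The array was picked because it was low in cerebellar transcripts, so these counts only describe it. Of the brightest granule cell markers, Cbln1, a synaptic organiser, was at 19.5% of the mean of the other 4 WT arrays, Zic1, a transcription factor, at 30.2% and Etv1 at 60.2%. Of the brightest Purkinje cell markers, Car8 was at 10.7%, Calb1, the calcium buffer calbindin, at 48.4%, and Pvalb, parvalbumin, at 55.1%. Gabra6, the granule cell GABA-A receptor subunit, read 6.03. Percentages are of log2 means turned back to the linear scale.

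Among the subunits, 2 of 9 lay well below the other 9 arrays. Gria4 read 10.75 on WT replicate 2, against 11.40 ± 0.045 on the other 4 WT arrays (SD, n = 4), or 63.5% of their level. Grin2c read 8.91 on WT replicate 2, against 9.42 ± 0.041 (SD, n = 4), or 70.0%. Gria4 lay 0.49 below the lowest of the other 9 arrays, more than the 0.20 that those 9 spanned. Grin2c lay 0.35 below, against a span of 0.23. Drops of at least 0.5 below the other 4 WT arrays were seen in these 2 subunits and in 2.16% of all probe sets, or in 3.17% of the brighter 60% of probe sets. Grin2c passed this limit narrowly, at -0.52. Its difference was -0.49 after quantile normalization and -0.47 against the other 9 arrays, where Gria4 had -0.61 and -0.60.

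The other 7 subunits were not low to that degree. Grin3a was at 92.4% of the other 4 WT arrays and 0.019 below the lowest of the other 9. Gria2 was at 95.4%, Gria3 at 98.0%, Gria1 at 101% and Grin2a at 105%, each within the range of the other 9 arrays; after median centring Gria1 and Grin2a turned to differences of -0.067 and -0.011. Grin2b was at 109% and Grin2d at 116%, each 0.07 above the highest of the others. Values outside the other arrays were common on that array: 36.5% of all probe sets lay above the other 9 arrays and 14.7% below. The median probe set was 0.085 higher than on the other 4 WT arrays. Over the brighter 60% of probe sets, which hold all 9 subunits, that median was 0.016. Median centring used all probe sets, so it lowered the subunits by more than the shift of the brighter ones. The medians of other marker lists were not low to that degree. The median difference of WT replicate 2 from the other 4 WT arrays was 0.27 over 8 striatal markers, 0.10 over 8 markers of cortical pyramidal neurons and 0.15 over 7 hindbrain markers. It was 0.065 over hippocampal, 0.047 over thalamic and 0.061 over olfactory bulb markers. Over cell types it was 0.039 for neurons, -0.13 for astrocytes, 0.18 for oligodendrocyte precursors, 0.063 for oligodendrocytes, 0.11 for microglia and 0.079 for endothelium. Single members of these other lists did lie as low as Gria4 or Grin2c. Calb2, on the thalamic list, was at 58.4% of the other 4 WT arrays. Eomes and Reln, on the olfactory bulb list, were at 53.6% and 65.0%. A gene was listed for a single region, and expression of these genes in cerebellum was not tested.

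**Figure D3:**
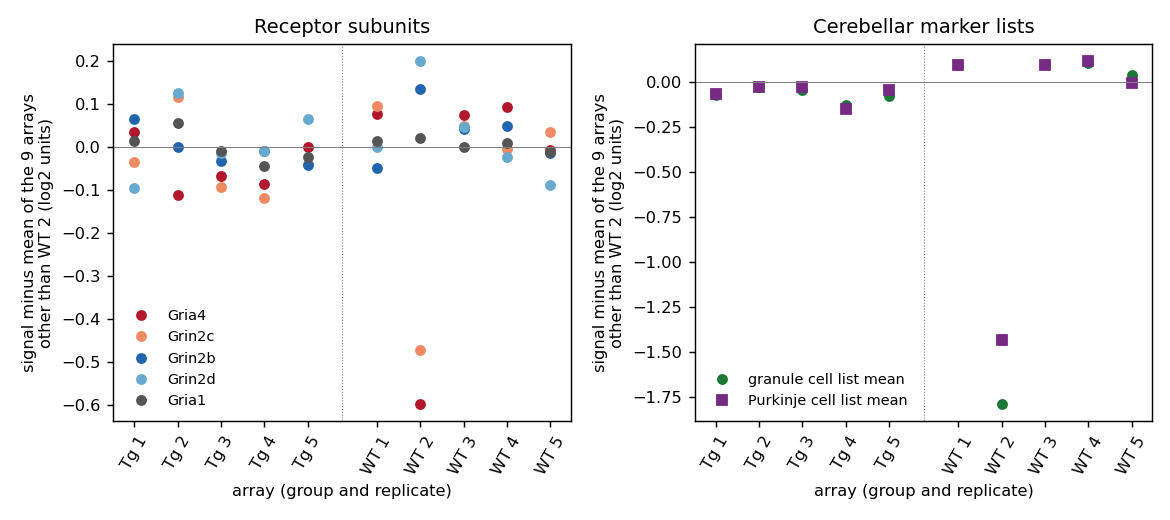
Signal on each array minus the mean of the 9 arrays other than WT replicate 2, in log2 units (vertical axes, different scales), for 5 subunits on the left and for the means of the granule cell and Purkinje cell marker lists on the right. On WT replicate 2 Gria4 lies at -0.60 and Grin2c at -0.47, with Grin2b at 0.13 and Grin2d at 0.20, while both marker lists lie below -1.

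The profiles most like those of Gria4 and Grin2c were sought by the root mean square difference over the 10 arrays, each profile taken relative to its mean over the 9 arrays without WT replicate 2. The limit set for this search, a value over 0.5 outside the range of the other 9 arrays, was met by 0 subunits, so both genes were chosen after their values were seen. Among 19937 other genes, Gria4 was nearest to Galnt13, a glycosyltransferase gene, with a difference of 0.029. Cdh7, a cadherin gene, followed at 0.037, the transcription factor gene Nfatc3 at 0.039, Asph at 0.040 and the protocadherin gene Fat1 at 0.043. Grin2c was nearest to Wscd2 at 0.043, followed by Mapk12, a kinase gene, at 0.057, Reln, the gene of the extracellular protein reelin and a member of the olfactory bulb list, at 0.057, Pan3 at 0.058 and Astn2 at 0.058. Grin2c was number 254 in the order for Gria4, at 0.094. A profile with no change over the arrays would have differed from Gria4 by 0.20 and from Grin2c by 0.17. Most of both values came from WT replicate 2, where Gria4 lay at -0.60 and Grin2c at -0.47. The nearest genes were also low there, from -0.66 for Galnt13 to -0.36 for Astn2 against the other 4 WT arrays. Nearness thus mainly describes a drop on the 1 array that was picked for low cerebellar transcripts.

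Receptor subunits work with auxiliary proteins, scaffolds, co-agonist enzymes and RNA editing factors, and 66 such genes were compared as 4 lists, of which 63 were measured. None passed between Tg and WT in either direction in limma, with 0 at an unadjusted p under 0.05 and differences from -0.09 to 0.20. Their median difference was -0.013, against -0.0031 over all probe sets. Without WT replicate 2, 0 passed and 5 of 63 had an unadjusted p under 0.05, against 11.0% of all probe sets. They were Grip2 at 0.14, Slc1a4 at 0.08, Shisa6 at -0.09, Homer3 at -0.14 and Dao at -0.10, of which Shisa6, Homer3 and Dao were at 0.05, 0.02 and 0.20 with all arrays. The Tg and WT values of 4 of the 63 genes, Grip2, Slc1a4, Shisa6 and Cnih2, did not overlap without that array, against 3.1% of all probe sets. Cnih2 was named after its values were seen.

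Of 19 AMPA receptor auxiliary genes, the lowest p belonged to Cacng8, a transmembrane AMPA receptor regulatory protein of forebrain, at -0.09 (-0.24 to 0.06, limma adjusted p = 0.9998). Without WT replicate 2 that difference was -0.02. Of 27 postsynaptic scaffold genes it belonged to Grip2, which binds AMPA receptor tails, at 0.10 (-0.01 to 0.21, limma adjusted p = 0.9998). Without WT replicate 2 it was 0.14 (limma adjusted p = 0.407), with 8.13 to 8.23 in Tg and 8.01 to 8.09 in WT, which did not overlap. Of 12 genes handling glycine and D-serine, the NMDA receptor co-agonists, it belonged to Phgdh, an enzyme of serine synthesis, at -0.08 (-0.23 to 0.07), and at -0.03 without WT replicate 2. Of 5 RNA editing genes it belonged to Adarb2 at -0.06 (-0.20 to 0.08), and at -0.05 without that array. Adarb1, the enzyme that edits the Gria2 transcript, differed by 0.03 (-0.05 to 0.11), with 10.67 ± 0.019 in Tg and 10.64 ± 0.036 in WT (SD, n = 5 each).

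On WT replicate 2 each of the first 3 lists held 1 gene that was low with Gria4 and Grin2c. Shisa6, an AMPA receptor auxiliary subunit, was at 62.4% of the other 4 WT arrays (9.71, against a range of 10.23 to 10.43 over the other 9 arrays). Homer3, a scaffold of Purkinje cell spines, was at 58.0% (8.67, against 9.23 to 9.53). Dao, the D-amino acid oxidase that degrades D-serine, was at 36.2% (7.06, against 8.36 to 8.59). These 3 were the only ones of the 63 to lie at least 0.5 below the other 4 WT arrays, or 4.76% against 2.16% of all probe sets and 3.17% of the brighter 60%. In the opposite direction Cacng8 was at 126% and Gsg1l at 128% among auxiliary genes, Dlgap2 at 125% and Dlgap3 at 118% among scaffolds, and Phgdh at 122% and Slc1a4 at 118% among co-agonist genes. Of the 63 genes, 15 lay below the other 9 arrays (23.8%, against 14.7% of all probe sets) and 25 above (39.7%, against 36.5%). Among editing genes Rpsa was at 113%, Adarb1 at 96.9% and Nova1 at 78.1%, the last with a value 0.0023 below the lowest of the other arrays.

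**Figure D4:**
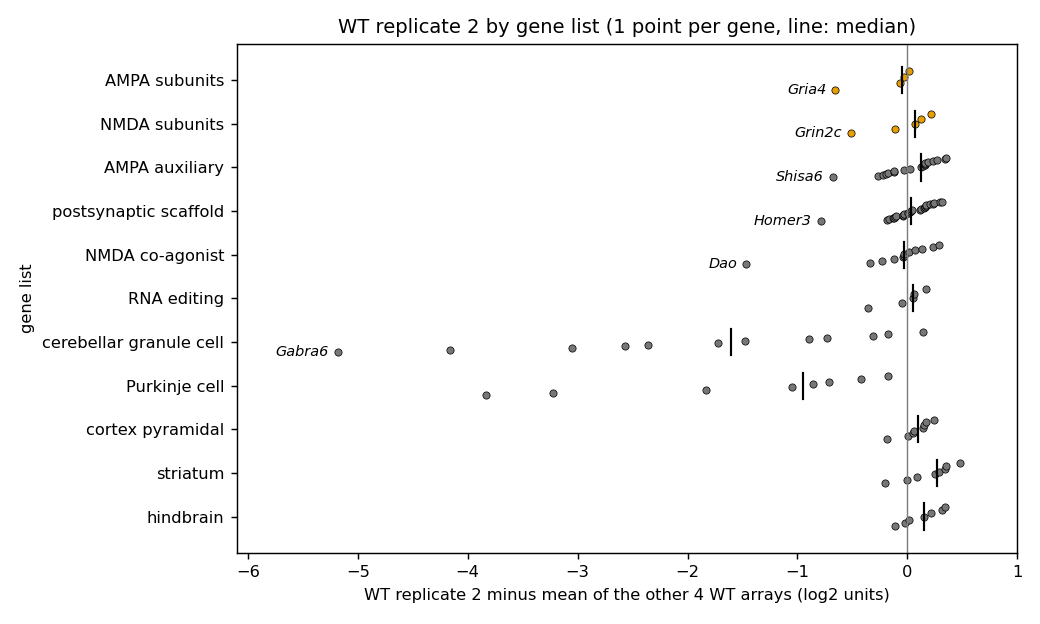
WT replicate 2 minus the mean of the other 4 WT arrays in log2 units (horizontal axis), 1 point per gene, for the AMPA and NMDA subunits (orange), their partner lists and marker lists of brain regions (grey), with a line at each median. Gria4 (-0.66) and Grin2c (-0.52) stand apart from the other subunits, while Gabra6, the lowest granule cell marker, lies at -5.18.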

How the data were processed

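Each of the 5 Tg and 5 WT mice gave whole-brain RNA for its own array; per the labels, TRIzol extraction preceded a Qiagen RNeasy clean-up and standard Affymetrix biotin labelling. Per the submitters' processing notes, the software was Affymetrix Expression Console 1.1.2, with no settings stated there. The table that the authors deposited holds log2 signals (3.28 to 14.7), and they were used unchanged; depth in reads does not apply, and signal over background was not analysed here. Control rows (6612 of 35556) were left out. Symbols were updated through gene identifiers of GRCm38.p6, which matched 21698 of 21789 probe sets with 1 gene; 1621 had several genes and 5534 none here.

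All 28944 remaining probe sets were fitted with limma 3.58.1 in R 4.3.3, without covariates, with Benjamini-Hochberg adjustment over all of them. Single values were also tested by two-sided exact permutation (smallest p 0.00794 for 5 against 5 arrays). The fit was tested on simulated data. The labels call the arrays of a group biological replicates. The genes named by rule were the measured subunits, the partner gene of lowest p per list, and Glo1 as a check. Also named by rule were up to 3 partners per list farthest outside the other arrays on WT replicate 2. The 3 brightest genes of each cerebellar list completed them. Gabra6, Calb2, Eomes, Cnih2, Camk2a, Psph, Shank3, and the genes most like Gria4 and Grin2c, were named after their values were seen. Members, lists and tests were chosen with earlier results of these data known. Lists for oligodendrocytes, their precursors, astrocytes, microglia, endothelium, hippocampus, thalamus and olfactory bulb served as checks. Alternatives covered normalization, filters, controls, variance models, array weights, a replicate block, the serial number in the labels and leaving out each array.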

Additional observations from a re-analysis of the deposited data

Results flagged for a closer look

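Dixon's test at its 95% limit looked for 1 outlying array within a group. It marked 14 of 144 gene and group combinations of subunits and partners, where chance marks about 1 in 20. Of the 14, 12 were on WT replicate 2. The combinations share the same arrays, and WT replicate 2 was singled out beforehand for its low cerebellar transcripts. The count is therefore a description and was not tested against that rate. Among the subunits the low values were Gria4 at 10.75 and Grin2c at 8.91. Among the partners, Dao at 7.06, Homer3 at 8.67 and Shisa6 at 9.71 were low on WT replicate 2. High on it were Dlgap2 at 10.39, Gsg1l at 9.82 and Slc1a4 at 9.84. Camk2a at 13.60, Cnih2 at 12.39, Psph at 8.60 and Shank3 at 10.03 were high on it too. On other arrays, Gsg1l was high at 9.56 on Tg replicate 1 and Adarb2 was low at 8.09 on WT replicate 1. No cause was tested.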

How the results depend on the processing

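Under 21 alternatives, 0 subunits passed in any, and the count of probe sets that passed over the whole array ran from 7 (upper 30% of probe sets) to 11, against 10 in the fit reported; with single arrays left out it ran from 9 to 11. Of 188 subunit differences under alternatives, 176 kept their sign and 12 changed it. Quantile normalization turned Gria1 to 0.012 and Grin2d to 0.0011, and array weights turned Gria4 to -0.077, Grin2c to -0.074 and Grin2d to 0.0043. With single arrays left out, Gria1 ranged from -0.022 to 0.0032, Gria2 from -0.052 to -0.010, Gria3 from -0.077 to -0.028, Grin2a from -0.050 to -0.0019, Grin2b from -0.057 to -0.011, Gria4 from -0.10 to 0.068, Grin2c from -0.078 to 0.064, Grin2d from -0.041 to 0.031 and Grin3a from -0.00083 to 0.046. WT replicate 2 gave the turned sign for Gria4, Grin2c, Grin2d and Grin3a. Tg replicate 2 gave -0.013 for Grin2c, Tg replicate 1 gave 0.015 for Grin2d, and Tg replicate 4 gave 0.0032 for Gria1. The values nearest 0 came without Tg replicate 4 for Gria2 and Gria3, without Tg replicate 3 for Grin2a and without WT replicate 2 for Grin2b.

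The lowest adjusted p of a subunit under any alternative was 0.432. With the replicate number as a block, 11 probe sets and 0 subunits passed; same-numbered arrays correlated in their deviations at -0.47 to 0.45, so the number was not treated as a pairing, although same-numbered Tg and WT arrays have close serial numbers in the labels. On WT replicate 2, median centring gave -0.74 for Gria4, -0.60 for Grin2c, -0.20 for Grin3a, -0.15 for Gria2, -0.11 for Gria3, 0.044 for Grin2b and 0.13 for Grin2d, and it turned Gria1 to -0.067 and Grin2a to -0.011. Quantile normalization gave 0.041 for Gria1, -0.61 for Gria4 and -0.49 for Grin2c. The other 9 arrays as comparison gave -0.60 for Gria4 and -0.47 for Grin2c, and turned Gria3 to 0.00070. Grin2d lay outside the upper 30% of probe sets and has no value there. The number of arrays limits the precision. The causes were not tested.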
